A study of Penicillium oxalicum with 9 samples.

Results

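The comparison concerns 2 regulator mutants of the mould Penicillium oxalicum, whose secreted enzymes break down starch and plant cell walls. It uses the 6 RNA sequencing libraries that the labels assign to these mutants, of 9 in the series. MuPOX01907 is the mutant of the gene POX01907 and MuPOX08340 the mutant of the gene POX08340, with 3 libraries each that carry the letters F, S and T. According to the titles, mycelium of both mutants was grown for 24 h in liquid medium with 1% starch. The growth protocol attached to the same libraries instead names Avicel, a microcrystalline cellulose, and it also names MuKu70. The stated medium is therefore uncertain, but the labels give it alike for both mutants. The labels do not say whether the mutants also carry the Ku70 change of the control strain, and they do not say how many transformants each strain represents or whether F, S and T were separate cultures. P-values accordingly measure the spread between these libraries, which may be technical.

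Filamentous fungi sense starch breakdown products and switch on secreted amylases. Glucoamylases release glucose from chain ends, and alpha-amylases cut starch chains internally. Both are controlled at the level of transcription by regulators that bind promoters, and the stated aim of the series is to learn the roles of such regulators of amylase genes. Cellulase and xylanase genes of such fungi are held low on easily used sugars and switched on by cellulose or xylan through regulators of their own.

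The deposited tables list 9834 gene IDs without names, and no source used here says what most of them encode. Expected counts, which are estimated reads per gene, totalled between 14412296 and 14751595 per library. The 8478 IDs with enough counts were tested with edgeR's quasi-likelihood test, and 1356 IDs (13.8%) were not tested. An ID was called where its Benjamini-Hochberg adjusted p was under 0.05 and its level differed at least 2-fold. Levels are FPKM (fragments per length of gene and depth of library) as deposited. Log2 fold changes are MuPOX01907 over MuPOX08340 after TMM scaling, a correction for differences in library composition. With library totals alone the median log2 fold change of all tested IDs was -0.39, against -0.03 with TMM scaling, so ratios of deposited FPKM run lower than the fitted fold changes.

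The targeted transcripts identified both strains. POX01907 had 0.01, 0.01 and 0.04 FPKM in MuPOX01907 F, S and T, against 24.2, 20.4 and 19.9 FPKM in MuPOX08340 F, S and T. The 5 reads left in MuPOX01907, against 5207 in MuPOX08340, put the transcript 1048-fold higher in MuPOX08340 (95% interval 449 to 3230, exact binomial, counting error only). POX08340 had 8.26, 8.01 and 7.28 FPKM in MuPOX01907 F, S and T and was listed at 0 in each of the MuPOX08340 libraries. Its 666 reads in MuPOX01907 were at least 220.5-fold higher than a floor of 3 reads over the MuPOX08340 group. Each library thus lacked, or nearly lacked, the transcript its label names and carried that of the other mutant. Both differences follow from the strains' construction and are a check of the labels, not a response.

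The starch enzyme IDs differed in how far the mutants were apart. POX01356 is the raw-starch-digesting glucoamylase PoxGA15A in publications on strain HP7-1, an assignment that the files do not hold. Its level was 228, 206 and 194 FPKM in MuPOX01907 F, S and T, against 23.8, 16.3 and 15.4 FPKM in MuPOX08340 F, S and T. The lowest MuPOX01907 library thus stood far above the highest MuPOX08340 library. The means were 209.6 ± 17.0 FPKM in MuPOX01907 and 18.5 ± 4.59 FPKM in MuPOX08340 (SD, n = 3 each), an 11.3-fold ratio. The fitted log2 fold change was 3.87 (SE 0.18, 95% interval 3.43 to 4.30, edgeR adjusted p = 6.03e-06). In RNA from whole mycelium, fewer cells that express a gene and less RNA of it per cell cannot be told apart, here and below.

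POX09352, the alpha-amylase Amy13A in the same literature, was low in both mutants. It measured 7.21, 6.81 and 3.98 FPKM in MuPOX01907 F, S and T, against 4.08, 3.95 and 4.26 FPKM in MuPOX08340 F, S and T. MuPOX01907 T lay within the range of MuPOX08340, so the groups overlapped. The log2 fold change was 0.91 (SE 0.23, 95% interval 0.38 to 1.44), and POX09352 was not called, because it stayed under the fold minimum at an edgeR adjusted p = 0.0124. Without MuPOX01907 T it reached 1.13 (adjusted p = 0.00119) and was called. Of the 2 starch enzyme IDs, 1 was therefore called higher in MuPOX01907 and 0 lower, against a background of 11.8% of all tested IDs called higher. The intervals of both IDs did not overlap, but the difference between their responses was not itself tested.

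POX03446, which encodes the starch enzyme regulator PoxRsrA in that literature, measured 14.2, 12.5 and 12.8 FPKM in MuPOX01907 F, S and T. In MuPOX08340 F, S and T it measured 15.5, 13.7 and 18.6 FPKM. The groups overlapped, and the log2 fold change of 0.08 did not pass the test (SE 0.15, 95% interval -0.27 to 0.42, edgeR adjusted p = 0.686). Its sign turned with library totals alone (-0.28), and the interval leaves room for a difference of less than 2-fold either way.

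**Figure D1:**
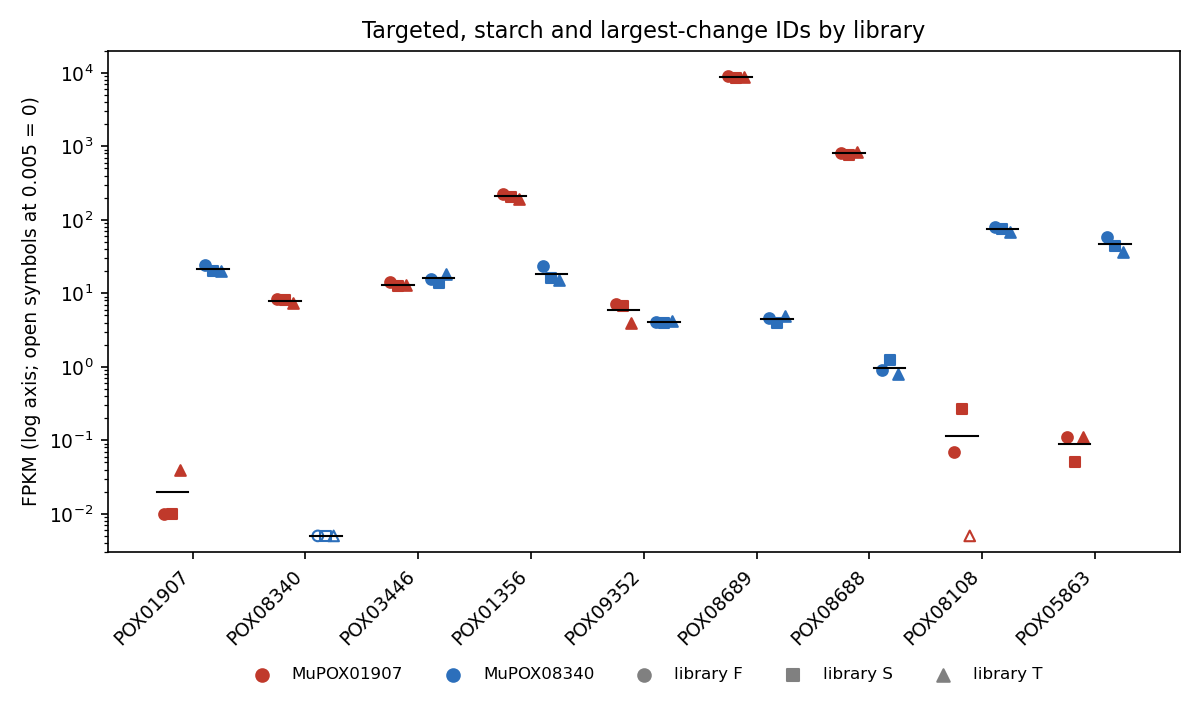
FPKM in each library (log axis) for the targeted genes, the starch regulator and enzyme IDs and the IDs with the largest changes, with MuPOX01907 left of MuPOX08340 and black lines at the group means (n = 3). POX01356 lies at 194 to 228 FPKM in MuPOX01907 and 15.4 to 23.8 FPKM in MuPOX08340, while POX09352 overlaps at MuPOX01907 T.

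Cellulase IDs stood low in both mutants, and a few were called higher in MuPOX01907. The list holds 8 IDs that the HP7-1 literature gives as cellulase genes, whose enzymes cut cellulose within or at the ends of its chains. Their median was 1.27, 1.65 and 3.06 FPKM in MuPOX01907 F, S and T, against 1.15, 1.67 and 2.1 FPKM in MuPOX08340 F, S and T. Of the 7 members with enough counts to be tested, 2 were called higher and 0 lower, against 11.8% higher and 10.8% lower of all tested IDs, and POX02740 was not tested at 0.14 to 0.49 FPKM. The median log2 fold change of the tested members was 1.01, with 6 positive and 1 negative, against -0.03 over all IDs tested. That median was 0.45 without MuPOX01907 T, 0.59 without MuPOX08340 F, 0.66 with library totals alone and 0.36 by limma on deposited log2(FPKM + 1) values.

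The 2 called cellulase IDs behaved differently across libraries. POX07535 had 10.3, 10.3 and 8.19 FPKM in MuPOX01907 F, S and T, against 6.22, 4.72 and 5.19 FPKM in MuPOX08340 F, S and T. These groups did not overlap, and the log2 fold change was 1.19 (SE 0.17, edgeR adjusted p = 0.000874), which fell under the fold minimum with library totals alone (0.83). POX04786 had 1.32, 1.56 and 3.75 FPKM in MuPOX01907 F, S and T, against 0.92, 1.33 and 0.78 FPKM in MuPOX08340 F, S and T. Its highest value was that of MuPOX01907 T. Its log2 fold change was 1.49 (SE 0.45, edgeR adjusted p = 0.0258) with all libraries and 0.87 without MuPOX01907 T (adjusted p = 0.0532). It lost the call under 7 of 15 alternatives, among them the omission of MuPOX08340 F (adjusted p = 0.0664) or MuPOX08340 T (adjusted p = 0.0776) and library totals alone (log2 1.13, adjusted p = 0.056).

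The remaining tested cellulase IDs were not called. POX01166 spread widely within a strain, at 1.21, 2.03 and 5.80 FPKM in MuPOX01907 F, S and T, against 1.37, 2.05 and 2.20 FPKM in MuPOX08340 F, S and T (log2 1.04, SE 0.55, edgeR adjusted p = 0.153). MuPOX01907 T was the highest of the 6 libraries for 5 of the 8 cellulase IDs and tied as highest with MuPOX08340 S for POX02740, at 0.49 FPKM. POX01166 was called without MuPOX01907 F (log2 1.42, adjusted p = 0.0457), whereas its log2 fold change was 0.15 without MuPOX01907 T (adjusted p = 0.744). POX05570 had a log2 fold change of 1.01 (edgeR adjusted p = 0.185) and was called with the library letter as a replicate block (log2 1.01, adjusted p = 0.0172). Its log2 fold change was 0.49 without MuPOX01907 T, 0.59 without MuPOX08340 F and 1.54 without MuPOX08340 T, and it was called in none of these 3 settings. POX05571 and POX05587 had log2 fold changes of 0.66 and 0.57. POX01896 had the one negative value, -0.12, at 1.75 ± 0.33 FPKM in MuPOX01907 and 2.44 ± 0.026 FPKM in MuPOX08340 (SD, n = 3 each). The intervals of POX01166, POX05570 and POX05587 reached from below 0 to beyond a 2-fold difference.

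The 3 xylanase IDs, whose enzymes cut the xylan backbone of hemicellulose, covered a wider range of levels. POX06783 had 70.1, 60.8 and 50.2 FPKM in MuPOX01907 F, S and T, against 33.4, 29.4 and 27.6 FPKM in MuPOX08340 F, S and T. The groups were clearly apart, with a log2 fold change of 1.36 (SE 0.15, edgeR adjusted p = 0.00022). POX00063 was rare, at 1.32 ± 0.71 FPKM in MuPOX01907 and 0.54 ± 0.23 FPKM in MuPOX08340 (SD, n = 3 each), and was also called (log2 1.64, SE 0.49, adjusted p = 0.0257). It lost the call without MuPOX01907 T (log2 1.11, adjusted p = 0.0858), without MuPOX08340 F (adjusted p = 0.0647) and without MuPOX08340 S (adjusted p = 0.0561). POX08484 measured 20.5 ± 2.32 FPKM in MuPOX01907 and 24.8 ± 1.66 FPKM in MuPOX08340, a difference that missed the threshold (log2 fold change 0.08, SE 0.13, 95% interval -0.22 to 0.39, edgeR adjusted p = 0.62). Its sign turned with library totals alone (-0.27). Of this list 2 members were thus called higher and 0 lower, with a median log2 fold change of 1.36, against 11.8% of all tested IDs called higher. The median was 1.00 with library totals alone, 0.72 with a mean of at least 1 FPKM as the filter, 0.70 by limma with TMM factors, and 0.35 and 0.36 by limma on deposited FPKM with pseudocounts of 1 and 0.1. Over the starch enzyme, cellulase and xylanase lists, 0 tested members were lower at an unadjusted p under 0.05 by edgeR with TMM scaling, by DESeq2 or by limma on deposited log2(FPKM + 1) values. With library totals alone, POX01896 was lower at an edgeR adjusted p = 0.047, by less than 2-fold (log2 -0.48). DESeq2 called 2 cellulase and 2 xylanase IDs higher, as edgeR did, whereas limma on deposited log2(FPKM + 1) values called 0 of 6 cellulase and 0 of 2 xylanase IDs tested.

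**Figure D2:**
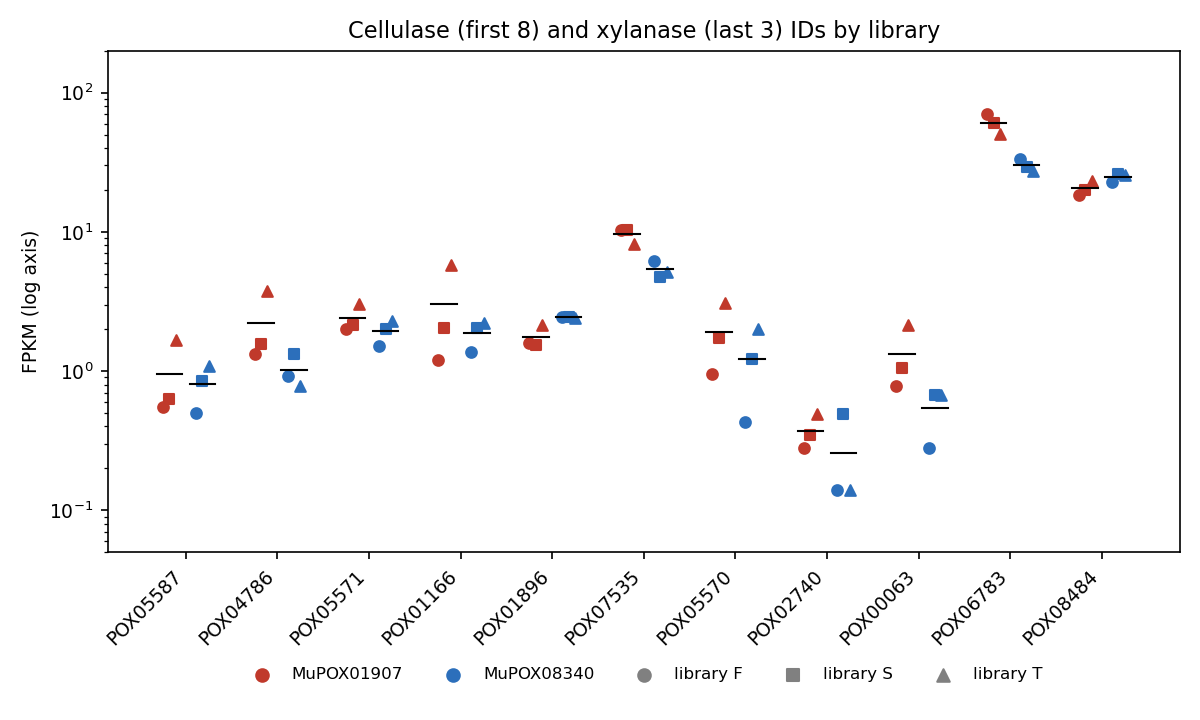
FPKM in each library (log axis) for the 8 cellulase IDs and the 3 xylanase IDs, with MuPOX01907 left of MuPOX08340, symbols for libraries F, S and T, and black lines at the group means (n = 3). POX06783 and POX07535 separate the strains, whereas several rare IDs are highest in MuPOX01907 T.

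Part of the spread within each strain ran along the library letters. Of 8478 IDs, T and F of the same strain were at least 2-fold apart for 434 in MuPOX01907 and for 634 in MuPOX08340. Between T and F, 238 IDs were at least 2-fold higher in T in both mutants. A further 3 were at least 2-fold lower in T in both, and 5 moved at least 2-fold in opposite ways. The cellulase IDs POX05587 and POX05570 and the xylanase ID POX00063 belong to the 238. POX05587, for example, was higher in T than in F by a log2 of 1.48 in MuPOX01907 and of 1.06 in MuPOX08340. Of the 238 IDs, 14 were called higher in MuPOX01907 and 10 lower, which are 5.88% and 4.2% of them, against 11.8% and 10.8% of all tested IDs. The 238 were chosen for a spread within each strain, which itself bears on the calls, so these shares are a description. What the letters stand for is not given in the labels, and the part of this shared variation in the calls was not tested beyond the block.

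Across all tested IDs the mutants differed widely. EdgeR called 1912 of 8478 IDs (22.6%), of which 998 (11.8%) were higher in MuPOX01907 and 914 (10.8%) were lower. The libraries of the strains did not overlap in FPKM for 1876 of the 1912, against 5697 (67.2%) of all tested IDs, and the calls favour such IDs. A further 1187 IDs were higher and 1231 lower at an adjusted p under 0.05 but by less than 2-fold. Conversely, 4864 IDs (57.4%) had a 95% interval that lay wholly within 2-fold either way. The split by direction rested on the scaling: library totals alone gave 653 higher and 1529 lower, so that 29.9% of the calls were higher, against 52.2% with TMM scaling. DESeq2 with its own size factors gave 998 higher and 897 lower, of which 993 and 892 were also called by edgeR.

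Most called differences were moderate. Of the higher calls, 686 had a log2 fold change from 1 to 2, 238 from 2 to 4, and 74 of 4 or more. Of the lower calls, 561, 264 and 89 fell into the same classes. Higher and lower calls lay at different levels of expression, as shown by 4 classes of equal size by mean level. In the class with the highest levels, 71.9 FPKM and above, 16.6% were called higher and 6.79% lower. In the lowest class, up to 10.1 FPKM, 12% were called higher and 21.7% lower. The median log2 fold change of all IDs was 0.16 in the highest class and -0.23 in the lowest.

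**Figure D3:**
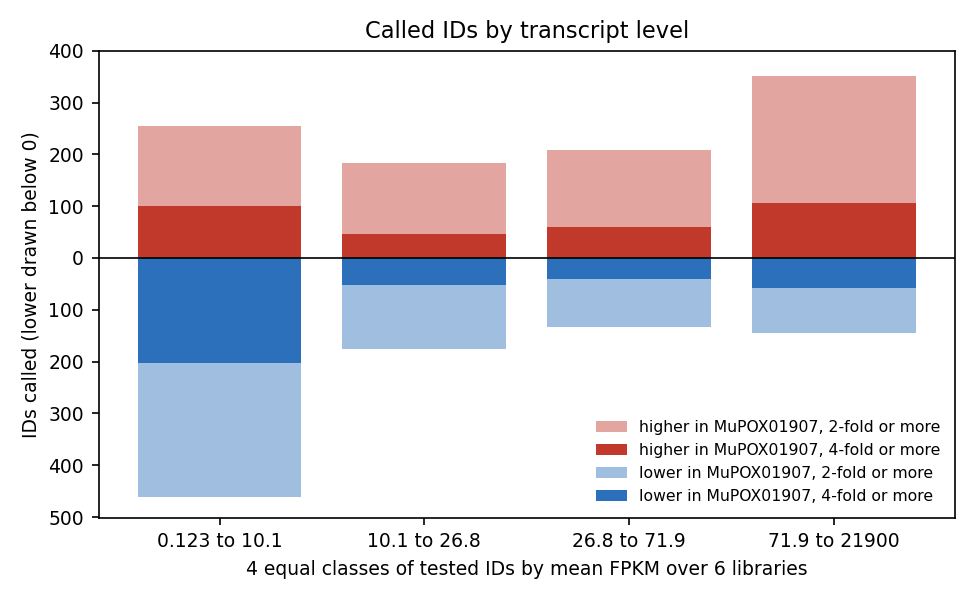
Number of IDs called higher (above 0) and lower (below 0) in MuPOX01907 relative to MuPOX08340, in 4 equal classes of the tested IDs by mean FPKM over the 6 libraries, with dark bars for differences of at least 4-fold. The highest class holds 351 higher and 144 lower calls, the lowest 255 higher and 461 lower.

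The IDs called higher took 29.8%, 30.02% and 31.0% of all counts in MuPOX01907 F, S and T, against 10.2%, 10.2% and 10.1% in MuPOX08340 F, S and T. The IDs called lower took 2.48%, 2.44% and 2.33% in MuPOX01907, against 12.6%, 11.2% and 11.0% in MuPOX08340. As the calls chose these IDs, the shares are a description. The calls played no part in the next measures. The 100 most abundant IDs of each MuPOX01907 library held 33.4% ± 0.498 of the counts, against 29.0% ± 1.22 in MuPOX08340 (SD, n = 3 each). In MuPOX01907, 8249 ± 32.3 IDs reached 1 FPKM, against 8481 ± 23.9 in MuPOX08340, and 558 ± 39.1 IDs had no count, against 450 ± 11 in MuPOX08340. The median FPKM was 16.455 ± 0.364 in MuPOX01907, against 21.59 ± 0.221 in MuPOX08340 (SD, n = 3 each). Like the number of IDs at 1 FPKM, it carries no correction for library composition. The measures from the 100 most abundant IDs to the median FPKM did not overlap between the strains. Their exact 2-sided permutation p of 0.1 each (0.125 adjusted over 5 measures) is the smallest that 3 against 3 libraries can give. The 10 most abundant IDs held 8.78% ± 0.305 in MuPOX01907 and 8.19% ± 0.632 in MuPOX08340 (SD, n = 3 each), which overlapped (exact permutation p = 0.2).

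**Figure D4:**
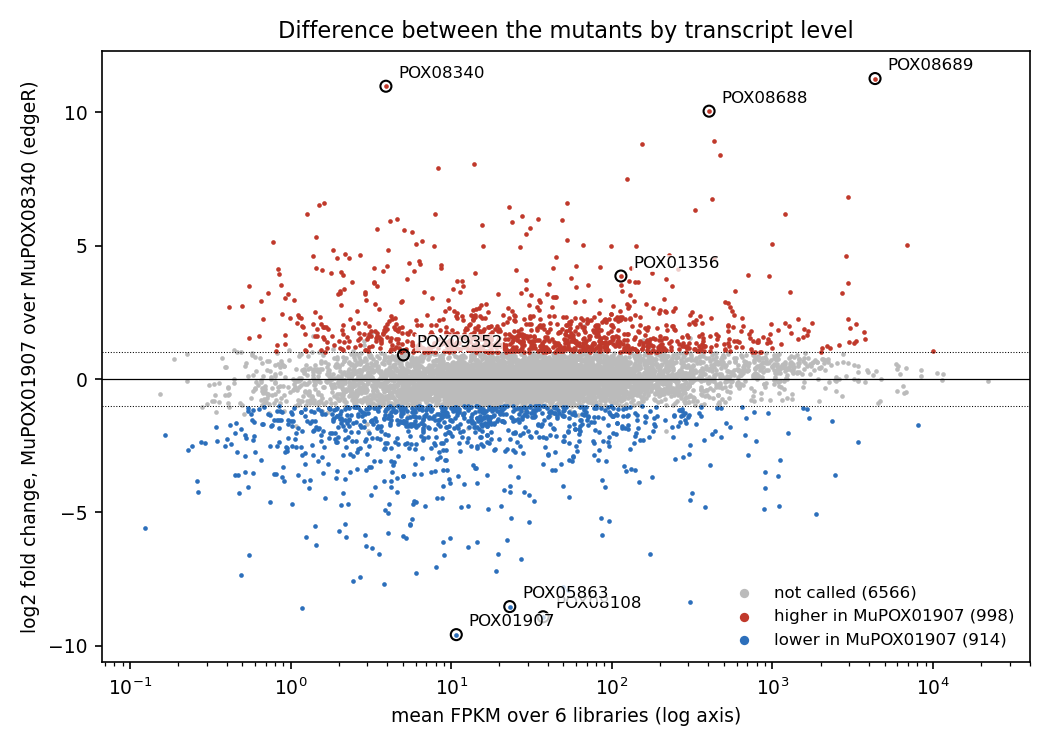
Log2 fold change of MuPOX01907 over MuPOX08340 against mean FPKM over the 6 libraries (log axis) for the 8478 tested IDs, with red for the 998 called higher, blue for the 914 called lower and dotted lines at a 2-fold difference. Ringed are the targeted genes, the starch enzyme IDs and the IDs with the largest rises and falls. POX08689 lies at the top and POX01907, the gene mutated in MuPOX01907, at the bottom.

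The largest rises relative to MuPOX08340 were those of POX08689 and POX08688, apart from the targeted genes and among IDs with a mean of at least 10 FPKM in the higher strain. POX08689 had 9050, 8441 and 8654 FPKM in MuPOX01907 F, S and T, against 4.57, 4 and 4.97 FPKM in MuPOX08340 F, S and T (log2 11.27, SE 0.17, edgeR adjusted p = 1.19e-07). POX08688 had 819, 754 and 846 FPKM in MuPOX01907, against 0.90, 1.23 and 0.80 FPKM in MuPOX08340 (log2 10.05, SE 0.22, adjusted p = 3.28e-07). Both were low in every MuPOX08340 library, and POX08689 was among the abundant transcripts of MuPOX01907.

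Under the same limits, the largest falls were those of POX08108 and POX05863. Each had 5 reads summed over the MuPOX01907 libraries, against 3272 and 2519 in MuPOX08340, so the size of these falls is loosely set. By limma on log2(FPKM + 1) with TMM factors they were -5.90 and -5.22, and POX08108 was -10.45 without MuPOX01907 S. POX08108 had 0.07, 0.27 and 0 FPKM in MuPOX01907 F, S and T, against 81.1, 75.2 and 67.7 FPKM in MuPOX08340 F, S and T (log2 -8.91, SE 0.40, edgeR adjusted p = 4.95e-06). POX05863 had 0.11, 0.05 and 0.11 FPKM in MuPOX01907, against 58.2, 44.0 and 36.6 FPKM in MuPOX08340 (log2 -8.53, SE 0.31, adjusted p = 2.03e-06). All 4 IDs kept their call and direction under every alternative that was run.

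Called IDs often carried neighbouring numbers. Of 881 IDs called higher whose next number was also tested, 264 (29.97%) were followed by another higher call, against 11.8% of all tested IDs called higher, and 52 (5.9%) by a lower call. Of 750 IDs called lower, 206 (27.5%) were followed by another lower call, against 10.8% of all tested IDs, and 58 (7.73%) by a higher call. There were 59 runs of at least 3 higher calls, holding 206 IDs, and 37 such runs of lower calls, holding 143. No source used here says that IDs with adjoining numbers lie side by side in the genome. In fungi, genes of one metabolic pathway can lie side by side and be transcribed together.

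The longest run of higher calls spanned the 8 IDs from POX08686 to POX08693. Its members averaged 306 to 8715 FPKM in MuPOX01907, against 0.873 to 65.8 FPKM in MuPOX08340. None of the 8 members overlapped between the strains, but runs hold only called IDs, of which 1876 of 1912 did not overlap. The 8 members took 3.64% to 4.14% of all counts in MuPOX01907 libraries, against 0.0186% to 0.0225% in MuPOX08340 libraries. Members kept distinct levels within a strain: POX08690 averaged 5870 FPKM in MuPOX01907 and 65.8 FPKM in MuPOX08340, while POX08692 averaged 306 FPKM in MuPOX01907 and 0.873 FPKM in MuPOX08340. The run had sharp borders in level, though the number directly before it was not tested. POX08694, the next number, differed in the opposite direction, at 2.71, 1.95 and 1.81 FPKM in MuPOX01907 F, S and T, against 50.8, 52.7 and 29.8 FPKM in MuPOX08340 F, S and T. POX08685, the untested number before the run, averaged 0.107 FPKM in MuPOX01907 and 1.01 FPKM in MuPOX08340. POX08684, 2 numbers before the run, was also called lower, at 0.08 FPKM in MuPOX01907 and 1.73 FPKM in MuPOX08340 on average.

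Of the runs of 6 higher calls, that from POX09596 to POX09601 had the larger median absolute log2 fold change, 4.58, and is described next. POX07959 to POX07964 was as long (median log2 2.13), with a median of 259.4 FPKM in MuPOX01907 and 77.7 FPKM in MuPOX08340. The run from POX09596 was faint by comparison. Its members averaged 0.837 to 11.6 FPKM in MuPOX01907, against 0.03 to 0.46 FPKM in MuPOX08340, with log2 fold changes from 2.76 to 6.59. The summed level was 29.9, 26.4 and 15.7 FPKM in MuPOX01907 F, S and T, against 0.87, 1.59 and 1.15 FPKM in MuPOX08340 F, S and T. The MuPOX08340 sums rest on 12 to 16 reads per library, so the size of these fold changes is loosely set. POX09595 and POX09602, the numbers on either side, had too few counts to be tested, so the ends of this run rest on the count filter. Further runs of higher calls had numbers close by, among them POX09604 to POX09606 (median log2 5.52).

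The longest run in either direction was one of lower calls, the 19 IDs from POX05850 to POX05868, which holds POX05863. In MuPOX01907 its members averaged 0 to 0.997 FPKM, against 1.09 to 46.3 FPKM in MuPOX08340, with log2 fold changes from -8.58 to -1.50. The summed level was 4.53, 5.40 and 5.12 FPKM in MuPOX01907 F, S and T, against 233.5, 210.8 and 155.8 FPKM in MuPOX08340 F, S and T. All 19 members were separated between the strains, as were 1876 of the 1912 called IDs, from which runs are drawn. Among the MuPOX08340 libraries, 18 of the 19 members were lowest in T. POX05865 had no fragment in any MuPOX01907 library, against 2.99, 2.45 and 1.68 FPKM in MuPOX08340 F, S and T. With 0 reads in MuPOX01907 against 161 in MuPOX08340, its log2 fold change of -8.58 is not a measured size. Other members also had few reads in MuPOX01907, such as 1 for POX05854 and 5 for POX05863. The larger fold changes of this run are therefore loosely set. POX05849, the number before the run, was not tested, so the start of the run rests on the count filter. It had 0.35, 0.52 and 0.17 FPKM in MuPOX01907 F, S and T, against 2.25, 2.28 and 0.87 FPKM in MuPOX08340 F, S and T. The run ended at POX05869, which was 10.5 FPKM in MuPOX01907 and 21.1 FPKM in MuPOX08340 and was not called (log2 -0.65). POX05870 beyond it was called lower again (log2 -3.07).

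Of the runs of 6 lower calls, that from POX01692 to POX01697 had the larger median absolute change (log2 -3.34). POX02064 to POX02069 was as long (median log2 -1.65), with a median of 49.5 FPKM in MuPOX01907 and 239.5 FPKM in MuPOX08340. The run from POX01692 was made of abundant transcripts. Its members averaged 16.6 to 46.1 FPKM in MuPOX01907, against 152 to 1724 FPKM in MuPOX08340. The highest member, POX01695, had 55.3, 51.0 and 32.0 FPKM in MuPOX01907 F, S and T, against 2123, 1601 and 1448 FPKM in MuPOX08340 F, S and T. All 6 members were thus still expressed at over 10 FPKM in MuPOX01907. POX01690 and POX01691, the numbers before it, were 28.5 and 32.5 FPKM in MuPOX01907 and 21.5 and 29.2 FPKM in MuPOX08340 and were not called. Both passed the p threshold in the opposite direction but by less than 2-fold (log2 0.77 and 0.51, edgeR adjusted p = 0.00234 and 0.0146). POX01698, the number after the run, was not tested.

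**Figure D5:**
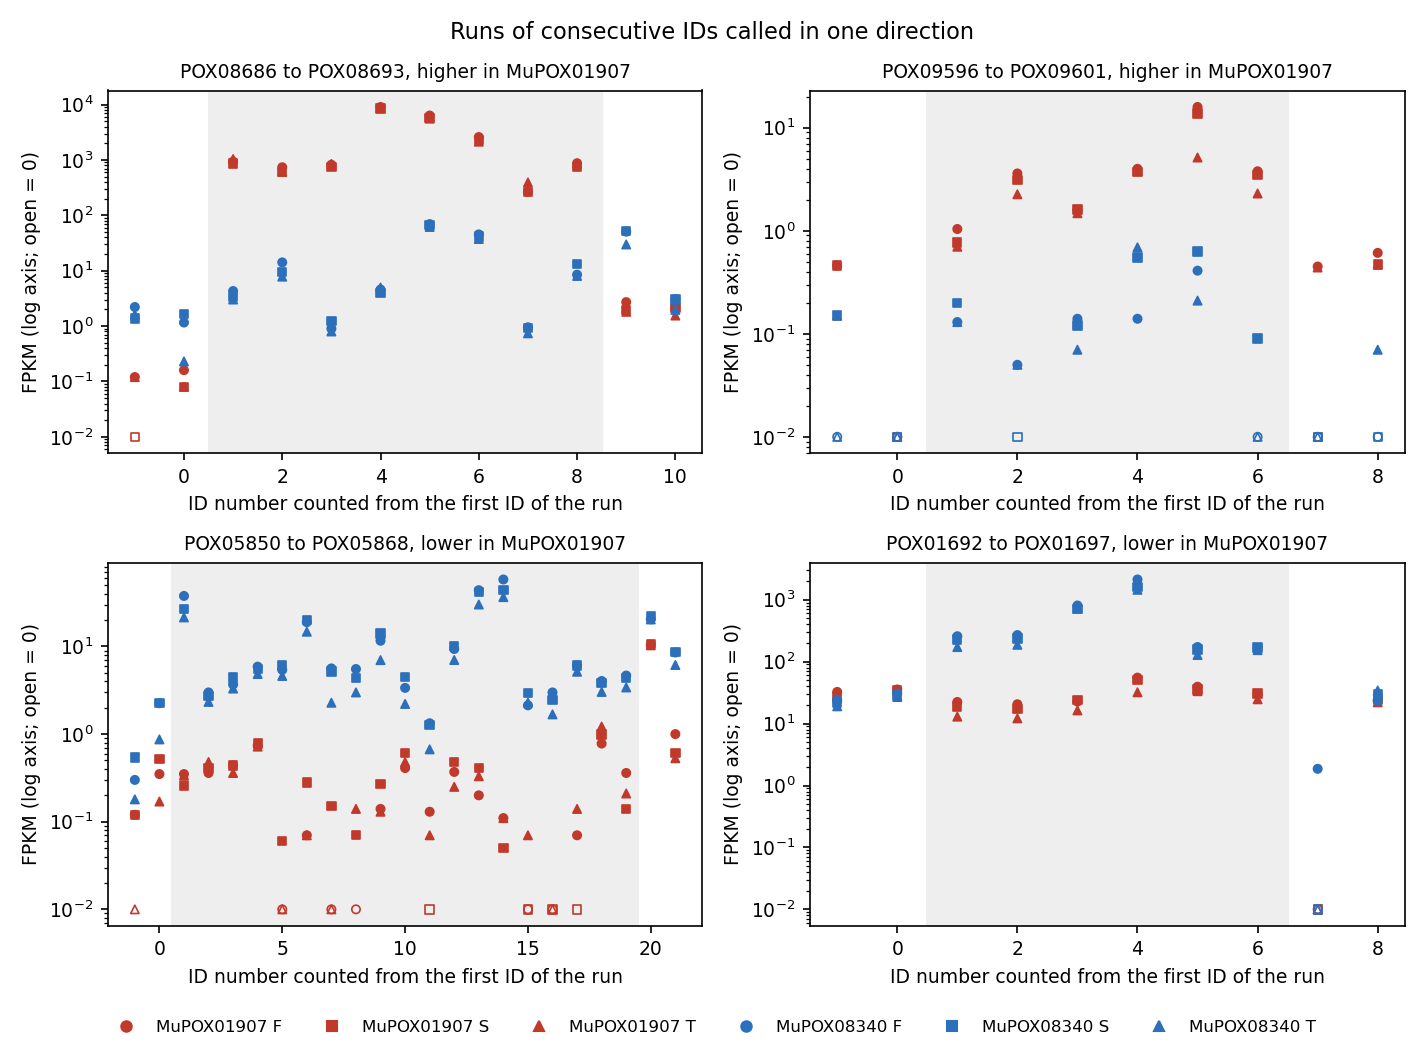
FPKM in each library (log axis) along 2 runs of consecutive IDs called higher (top) and 2 called lower (bottom) in MuPOX01907 than in MuPOX08340, the longest and, of those tied for the next length, the one with the larger median absolute log2 fold change, with the run shaded, up to 2 IDs on each side, red for MuPOX01907, blue for MuPOX08340 and open symbols at 0.01 for a value of 0. Within each shaded run the strains are separated at every ID, as they are for 1876 of all 1912 called IDs.

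Libraries of a strain resembled each other more than those of the other strain. Over the tested IDs (a correlation across genes, not across replicates) Pearson's r on the log2(FPKM + 1) scale was 0.983 to 0.994 within MuPOX01907, 0.968 to 0.990 within MuPOX08340 and 0.881 to 0.901 between the strains. The lowest value within each strain was that between F and T. Every pair of libraries differed by more than counting error alone, with a chi-square of at least 17.5 per degree of freedom. At this depth that bar is low, so nothing is concluded from it.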

How the data were processed

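Per the labels' protocols, total RNA of mycelium was made into cDNA libraries for Illumina sequencing. The expected counts and FPKM values were used as the authors deposited them. The submitters' processing notes name RSEM 1.2.12, Bowtie2 2.1.0, BWA 0.7.10-r789 and DESeq2 without their roles. No source used here gives build, annotation or strandedness, so IDs with close copies or antisense partners are uncertain. Between 97.4% and 97.8% of the deposited expected counts were whole within 1e-06, and they were rounded. None of the 9834 IDs matched the RefSeq table of assembly ASM172317v3 (0 matches), so no names, positions or sequences are given.

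Only the 6 mutant libraries were fitted, with edgeR 4.0.16 in R 4.3.3 (TMM, filterByExpr, quasi-likelihood test, Benjamini-Hochberg adjustment) and no block. The SE is the log2 fold change over the square root of F. The scripts were tested on simulated data. DESeq2 1.42.0, limma 3.58.1 on log2(FPKM + 1), other filters and scalings, and the omission of each library were alternatives. Deviations from strain means correlated at 0.594, 0.132 and 0.465 between F, S and T libraries of both strains, each above 0.1. Unlike letters gave -0.552 to 0.235, the highest between MuPOX01907 S and MuPOX08340 T, so the S libraries did not stand out as a pair. The letters served as a replicate block in an alternative fit only, and a blocked value is given where it changed a call. With the block POX05571 (log2 0.66, edgeR adjusted p = 0.0201) and POX01166 (log2 0.90, edgeR adjusted p = 0.042) passed the p threshold but stayed under the fold minimum.

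Gene lists rest on IDs recalled from the HP7-1 literature. Members, lists and tests were chosen with earlier results of these data known. Named IDs were those of the labels and lists, the 2 largest rises and 2 largest falls among called, non-overlapping IDs with at least 10 FPKM in the higher strain, and the 2 longest runs per direction (ties broken by the larger median absolute log2 fold change), with the flanking IDs and POX01695 and the other run members singled out after their values were seen.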

Additional observations from a re-analysis of the deposited data

How the results depend on the processing

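The counts of 998 higher and 914 lower calls moved with scaling and unit. Without a composition factor edgeR gave 653 higher and 1529 lower. Limma on deposited FPKM gave 601 higher with a pseudocount of 1, and 665 higher and 1423 lower with 0.1. Without the fold minimum there were 2185 higher and 2145 lower. The remaining alternatives, among them limma with TMM factors (939 and 704) and the replicate block (1017 and 930), stayed within 1.5 times. Leaving out 1 library gave 959 to 1005 higher and 886 to 1034 lower. POX01356 was called under all 15 alternatives (log2 3.46 to 4.06). POX09352 ranged from 0.75 to 1.13 with 1 library left out, was called without MuPOX01907 T, and fell to 0.55 with library totals (adjusted p = 0.0653) and to 0.42 and 0.49 with limma on deposited FPKM (adjusted p = 0.107 and 0.112). POX03446 turned to -0.28 without a composition factor and to -0.25 and -0.27 with limma on deposited FPKM, and ranged from -0.045 to 0.18 with 1 library left out. POX08484 turned to -0.27, -0.26 and -0.27 in the same settings and ranged from -0.0058 to 0.16. POX05587 ranged from -0.11 to 0.84, the negative value without MuPOX01907 T. POX06783 fell under the fold minimum with limma on deposited FPKM (log2 0.97 and 0.99). The replicate block changed the call of POX05570 and of no other named ID. The cause of these shifts was not tested. POX02740 was not tested at its counts. Under these alternatives at least 17 of 19 IDs were called in the run from POX05850, 8 of 8 in that from POX08686, 4 of 6 in that from POX09596 and 6 of 6 in that from POX01692.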

Other observations

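With at most 3 reads summed over the libraries of one strain and a mean of at least 1 FPKM in the other, 62 IDs were at or under this floor in MuPOX01907 and 30 in MuPOX08340, POX08340 itself among these 30. Their levels in the other strain were low, with a median of 1.62 FPKM in MuPOX08340 for the 62 and of 2.05 FPKM in MuPOX01907 for the 30. The 62 IDs held 0.00984% of the counts in MuPOX08340, and the 30 IDs 0.00349% of those in MuPOX01907. The sets include IDs with few reads in both strains, such as POX02027, which belongs to both sets. With at least 30 reads also required in the other strain, a limit chosen after seeing the data, 26 and 10 IDs were left. Of the 62 IDs 23 were called, and of the 30 IDs 8. Every member that was not called had failed the count filter and was not tested. All tested members were thus called, against 22.6% of all tested IDs. Most untested members had few reads, but POX08273 had 345 in MuPOX08340, spread unevenly over its libraries (8.67 ± 10.1 FPKM, SD, n = 3). The rule that chose these sets uses the same contrast as the calls, so these counts are a description.

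The most abundant transcripts were largely shared. Of the 100 IDs with the highest mean FPKM in each strain, 73 were common to both. Of the 100 in MuPOX01907, 34 were called higher in MuPOX01907 and 1 lower. Of the 100 in MuPOX08340, 12 were called higher in MuPOX01907 and 15 lower. The shares were 11.8% higher and 10.8% lower over all tested IDs. In the class with the highest levels they were 16.6% and 6.79%. Each list was chosen by level in the same libraries, which favours IDs higher in the strain that chose it, so these counts are a description.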
